A study of Mus musculus with 6 samples.

Results

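The histone genes of the mouse Hist clusters were the 67 genes, of 31053 listed in each library, whose symbol begins with Hist1h, Hist2h, Hist3h or Hist4h, and all 67 were listed in every one of the 6 deposited tables. They comprised 54 genes of Hist1, 10 of Hist2, 2 of Hist3 and 1 of Hist4. By histone type there were 6 genes of the linker histone H1, 18 of H2A, 18 of H2B, 12 of H3 and 13 of H4. The RNA came from embryoid bodies, the floating aggregates that embryonic stem cells form, grown to day 6 along a protocol that yields motor neurons. The starting mouse stem cells carry HB9::GFP, in which GFP is driven by the promoter of Hb9 (Mnx1), a motor neuron gene. All groups carried that reporter and had the same stage, and they differed only, by their labels, at the locus of the long noncoding RNA lncMN2 (5330434G04Rik in the tables): wild type (WT), lncMN2_SP-/- (DeltaSP) and lncMN2-/- (KO), the edited ones being clones made with CRISPR/Cas9. Each genotype had 2 clones, each in 1 droplet library, so clone and library cannot be told apart and a p-value measures the spread between these libraries.

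Most histone protein of a dividing cell is made from replication-dependent genes, which lie together in clusters and are transcribed as DNA is copied. Their mRNAs are the exception among mRNAs of animal cells, because they end not in a poly(A) tail but just after a short stem-loop, which is bound by SLBP and set free by a cut that the U7 snRNP directs. Some of these genes also carry a polyadenylation signal beyond the stem-loop, and cells that leave the cell cycle can make a polyadenylated mRNA from them. A droplet method that primes on poly(A), as used here, captures the polyadenylated forms, and tail-less mRNA only where an inner run of A is primed. Every level below is therefore one of captured mRNA, in UMIs (1 UMI stands for 1 captured molecule whatever its length), and not of total histone mRNA.

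The stem-loop was searched in the GENCODE transcripts of the members and found in 45 of 67 (67.2%), against 14 of 21810 other protein-coding genes (0.064%). The other 22 members had no match, and 15 of those had no 3′ UTR over 2 bases annotated, so that neither a stem-loop nor a signal could be found in them. The members differed in what follows. A polyadenylation signal (AATAAA or ATTAAA, on the sense strand, after the stem-loop or, without one, after the stop codon) was found in 22 members, 17 of them with a stem-loop before it, and in 45 members none was found. Within the last 50 bases of the transcript, where such a signal usually lies, it was found in 17 members (25.4%) and in 72.3% of the other protein-coding genes. The stem-loops below belong to the members on which the results turn and show how alike the processing element is between genes whose levels behaved differently. Capitals mark the 16 bases of stem and loop, and up to 4 bases on each side are in lower case.
Hist1h1c: aaaaGGCTCTTTTCAGAGCCacca
Hist1h2ap: aaaaGGCTCTTTTCAGAGCCatc
Hist3h2a: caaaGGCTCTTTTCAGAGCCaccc
Hist1h2bj: caaaGGCTCTTTTCAGAGCCacgc
Hist3h2ba: caaaGGCTCTTTTCAGAGCCacct
Hist1h4i: taaaGGCCCTTTTTAGGGCCacca
Hist2h4: taacGGCCCTTTTTAGGGCCaacc

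There were 8 different stem-loops, and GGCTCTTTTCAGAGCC stood in 25 of the 45 members. The annotated transcript ended 3 bases after the stem-loop in Hist1h2ap and 23 bases after it in Hist1h2bj, neither of which had a signal beyond it. It ran on for 169 bases in Hist3h2ba, 330 in Hist1h4i, 840 in Hist1h1c, 1257 in Hist2h4 and 1643 in Hist3h2a, all of which had one. Transcripts of the members had 1 exon in 62 genes and more than 1 in 5 (Hist1h2bc, Hist1h2be, Hist1h2bp, Hist1h2bq and Hist1h2br).

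Because the clusters hold near-identical copies, reads can fail to be assigned to 1 gene. In windows of 50 bases, 18 members shared none of their last 300 bases with another gene, 49 shared some and 34 shared at least 50% of them. Hist3h2ba, Hist3h2a, Hist1h4i, Hist1h1c and Hist2h4 shared 0% and Hist1h2ap 100%, so its counts, like those of the other sharing members, are uncertain. Exons of 7 members overlap those of another gene on the same strand, so these counts are uncertain too. Among them Hist3h2a overlaps Trim17, Hist2h3c1 Gm20634, Hist1h1e both Hist1h2be and Gm11398, and Hist1h2ac Gm24991.

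Upstream, the letters CCAAT (the box bound by NF-Y), on either strand, stood in 85.5% of the 62 member promoters that RefSeq gave, against 37.9% of all 27025 promoters of the same 300 bases, and 71.0% held 2 or more, against 12.2%. TATAAA, also on either strand, stood in 56.5%, against 14.2%. The promoters of the Hist3 pair, the abundant members that rose in neuron-like cells, are printed from RefSeq (GRCm38.p6, from 250 bases before to 50 after the start), with CCAAT, its reverse ATTGG and TATAAA in capitals. Hist3h2ba lies at chr11:58948661-58948960, plus strand, and Hist3h2a at chr11:58954435-58954734, plus strand. A match is a description and not a bound site.
Hist3h2ba: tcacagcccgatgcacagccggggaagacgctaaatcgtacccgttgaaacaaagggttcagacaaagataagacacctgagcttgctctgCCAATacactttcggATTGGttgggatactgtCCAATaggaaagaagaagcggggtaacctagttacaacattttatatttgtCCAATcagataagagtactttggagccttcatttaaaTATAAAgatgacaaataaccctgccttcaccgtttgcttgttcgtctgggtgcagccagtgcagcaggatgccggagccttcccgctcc
Hist3h2a: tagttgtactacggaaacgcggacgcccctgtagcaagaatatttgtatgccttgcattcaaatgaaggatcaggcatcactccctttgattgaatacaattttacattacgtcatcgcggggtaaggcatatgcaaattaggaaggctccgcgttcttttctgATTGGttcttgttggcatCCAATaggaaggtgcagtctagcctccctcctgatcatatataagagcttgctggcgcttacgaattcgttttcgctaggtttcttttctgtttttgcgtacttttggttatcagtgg

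Of the 24215 deposited barcodes, 16225 cells passed the filters. Libraries held 24191242 to 49061693 UMIs. WT 1 stood apart: its cells had a median of 4157 UMIs, against 11898.5 to 15112 in the other 5 libraries, and it supplied 1429 of the 1488 cells of 1 progenitor-like cluster, and 805 of 996 and 473 of 477 cells of 2 motor neuron-like clusters. Kept libraries shared 8 to 23 cell barcodes each with others. The edited gene itself stood at 37.4 and 34.8 CPM in WT, 22.4 and 23.3 in DeltaSP, and 0.124 and 0.170 in KO (4 and 6 UMIs). The KO libraries were thus near 0 as their labels say, whereas nothing in the sources used here gives the extent of the DeltaSP deletion, so its counts do not test that label. Neuron-like cells were 41.4% and 40.8% of WT cells, 32.9% and 24.1% of DeltaSP cells and 23.5% and 21.5% of KO cells, so sums over all cells mix changes within cells with changes in make-up, and fewer cells of a type and less RNA per cell cannot be told apart in them.

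The 67 members gave 107443 UMIs in kept cells. A few genes gave most of them, and the 60 members under 20 CPM gave 14786 UMIs (11.3% to 21.4% of the sum per library). Of all members 7 averaged at least 20 CPM (UMIs scaled to the total of the library or cell set), 24 lay between 1 and 20 CPM, and 36 were under 1 CPM, 2 of them (Hist1h2ba and Hist2h2aa2) without a single UMI. Hist1h2ap, an H2A gene without an annotated signal, led with a mean of 242.1 CPM and 49201 UMIs. Hist3h2ba, an H2B gene of the small Hist3 cluster, followed with 84.3 CPM and 15594 UMIs. Then came Hist1h4i (H4, 35.2 CPM), Hist1h2bc (H2B, 34.2), Hist1h2ae (H2A, 29.3), Hist3h2a (H2A, 23.6) and Hist1h1c (linker H1, 23.5), and these 5 lay close together against the spread between libraries. All but Hist1h2ap of the 7 carried an annotated polyadenylation signal. In GRCm38 Hist1h2ap lies at chr13:21833026-21833507 on the minus strand, Hist3h2ba at chr11:58948920-58949533 and Hist3h2a at chr11:58954685-58956830 on the plus strand.

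The members known from the male germ line were at the bottom of the range. Hist1h1t, the testis linker histone, had 7 UMIs in all 6 libraries, 1 of them in germ cell-like cells. Hist1h2aa, a testis H2A, had 5 UMIs, none of them in germ cell-like cells. Hist1h2ba, the testis H2B, had 0 of 192814885 UMIs, which allows a level of up to 0.0156 CPM at 3 counts (counting error only).

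Summed over all members, the level in all kept cells was 658 and 669 CPM in WT, 494 and 722 in DeltaSP, and 368 and 398 in KO. Both KO libraries lay below every other library, and DeltaSP spanned the WT range. KO lay 281 CPM below WT, and an exact two-sided permutation test over libraries gave p = 0.333, the smallest that 2 against 2 can give. DeltaSP minus WT was -55.8 CPM (exact permutation p = 1) and turned to 58.0 without DeltaSP 1.

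The make-up of the sum differed between libraries of 1 genotype. Hist1h2ap made 25.1% and 56.3% of it in WT, 38.8% and 53.0% in DeltaSP, and 32.1% and 54.6% in KO. Members with a signal made 58.9% and 35.7% in WT, 53.6% and 37.5% in DeltaSP, and 58.1% and 36.6% in KO. In share of the sum, library 2 thus lay above library 1 in all 3 genotypes for Hist1h2ap, and below it for the members with a signal. These shares depend on each other. In CPM the members with a signal stood at 387 and 239 in WT, 265 and 271 in DeltaSP, and 214 and 146 in KO, so DeltaSP did not follow that order. The labels do not say what the libraries of 1 number share. Without Hist1h2ap the sum was 493 and 292 CPM in WT, 302 and 339 in DeltaSP, and 250 and 181 in KO, so the KO libraries were again the lowest.

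By histone type, H2A was the largest part of the sum in each library, at 296 and 441 CPM in WT, 248 and 451 in DeltaSP, and 155 and 247 in KO. H2B stood at 199 and 140 in WT, 142 and 140 in DeltaSP, and 101 and 61.2 in KO, and H3 at 26.4 and 18.5, 14.6 and 22.2, and 13.8 and 13.5. Both KO libraries lay below all others in H2A, H2B and H3. In H2A the gap was less than 1 CPM (247.4 in KO 2 against 247.9 in DeltaSP 1). So it was in H3 (13.8 in KO 1 against 14.6 in DeltaSP 1). H1 (76.0 and 32.2 in WT, 51.8 and 42.0 in KO) and H4 (60.4 and 37.1 in WT, 46.3 and 34.2 in KO) overlapped between these genotypes.
Outside the neural classes, the sum in mesoderm-like cells was 652 and 586 CPM in WT, 468 and 678 in DeltaSP, and 344 and 448 in KO, with KO again lowest. In germ cell-like cells, of which WT held 8 and 9, it ran from 351 to 1027 CPM with no order by genotype.

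**Figure D1:**
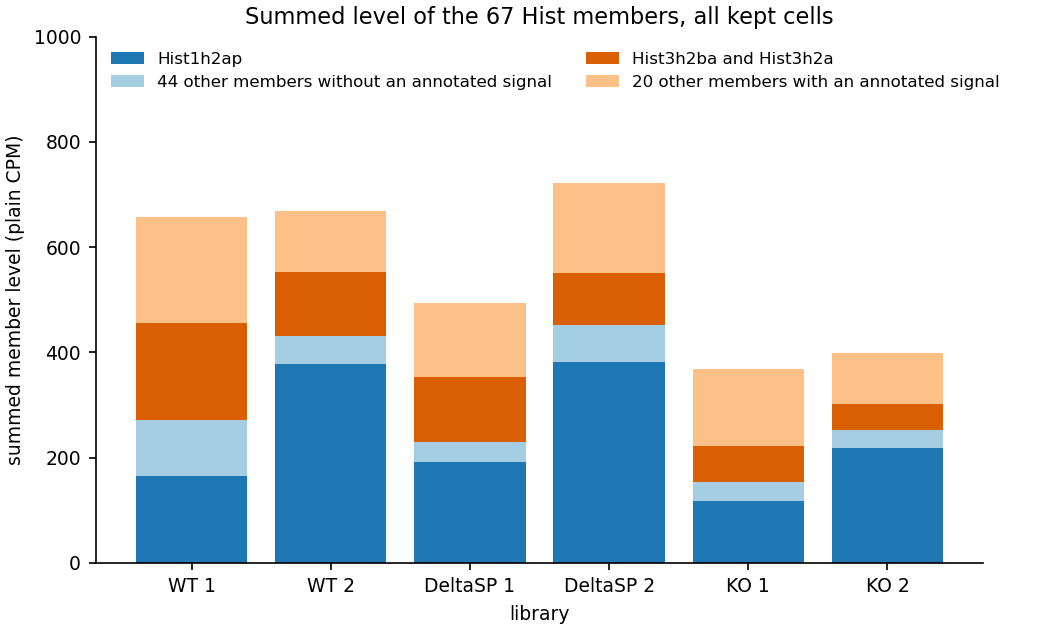
Summed level of the 67 members in all kept cells of each library, in plain CPM (UMIs scaled to the library total); each bar is 1 library, and its parts are Hist1h2ap, the other members without an annotated polyadenylation signal, the Hist3 pair and the other members with a signal. The KO bars, at 368 and 398 CPM, are the lowest of the 6, and Hist1h2ap takes a larger part in library 2 of each genotype.

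The comparison of KO with WT asked how member levels changed with the loss of the locus. Of the 49 that passed the filter on low counts, 10 fell, 0 rose and 39 did not pass the test (edgeR quasi-likelihood test, Benjamini-Hochberg adjusted over all genes), where 7.52% of all 14900 genes tested were called, 4.71% lower and 2.81% higher. Of the members tested, 20.4% fell. Their median log2 fold change was -1.32 and 47 of 49 were below 0, against a median of 0.00 over all genes. Both KO libraries lay below both WT libraries in 32 of the 49 members and above them in 0, where 29.3% of all genes had KO below WT and 30.1% above.

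Among the linker genes 0 of 5 tested were called by edgeR. Hist1h1c, which encodes a widely expressed linker histone, had 25.7 and 16.4 TMM-scaled CPM (scaled so that most genes match between libraries) in WT, 23.7 and 23.1 in DeltaSP, and 30.7 and 20.8 in KO. The groups overlapped, and its log2 fold change was 0.30, or -0.00 without KO 1. It was 1 of 2 members not below 0.

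Of the H2A genes, 3 of 11 tested fell. Hist3h2a had 51.2 and 24.4 TMM-scaled CPM in WT, 28.8 and 19.7 in DeltaSP, and 13.5 and 9.34 in KO. Both KO libraries were below all others, and it fell by 1.72 ± 0.38 (log2, SE; adjusted p = 0.0423), and every change given below with fell or rose is on that scale. Hist1h2ag, at 2.83 and 2.57 in WT, 0.880 and 1.07 in DeltaSP and 0.529 and 0.369 in KO, fell by 2.58 (adjusted p = 0.0259), and Hist1h2ak fell by 2.27. The WT libraries of Hist1h2ag stood above the other 4 with no overlap. Hist1h2ap, the most abundant member, did not pass the test: it had 190 and 391 TMM-scaled CPM in WT, 184 and 400 in DeltaSP, and 111 and 194 in KO. Library 2 was about as far above library 1 in each genotype as the genotypes were apart, and its log2 fold change of -0.93 had an adjusted p of 0.230 and turned to 0.25 with the trend over transcript length removed. Hist1h2ae had 78.5 and 26.3 in WT and 13.8 and 12.1 in KO, a log2 fold change of -2.01 with an adjusted p of 0.0683.

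Of the H2B genes, 4 of 14 tested fell. Hist3h2ba, the second most abundant member, had 162 and 103 TMM-scaled CPM in WT, 89.4 and 84.9 in DeltaSP, and 49.4 and 34.6 in KO. The 3 genotypes did not overlap, with DeltaSP between the others. It fell by 1.66 ± 0.25 in KO (adjusted p = 0.0262), to 42.0 ± 10.5 from 132 ± 41.8 (mean and SD, n = 2 each). Hist1h2bj had 4.98 and 3.14 in WT, 0.907 and 1.70 in DeltaSP, and 0.311 and 0.284 in KO, and fell by 3.75 ± 0.48 (adjusted p = 0.0233). Its genotypes did not overlap either. Hist1h2bk fell by 3.20 and Hist1h2bm by 2.06, while Hist1h2bc, at 42.7 and 27.6 in WT and 37.8 and 14.3 in KO, had a log2 fold change of -0.43 that did not pass and was 0.12 without KO 2.

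Of the H3 genes 2 of 10 tested fell, Hist1h3e by 1.41 (adjusted p = 0.0492) and Hist1h3a by 1.65, with an adjusted p just under the threshold. Of the H4 genes 1 of 9 fell, Hist1h4c, by 3.10. Hist1h4i, the most abundant H4 gene, had 45.5 and 26.8 in WT, 38.2 and 42.4 in DeltaSP, and 36.7 and 23.5 in KO. Its groups overlapped, and its log2 fold change of -0.26 turned to 0.00 or above under 4 other settings.

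By their annotated ends, 2 of 20 tested members with a polyadenylation signal fell (median -0.69) and 8 of 29 without one (median -1.65). The difference between these sets was not tested. The sets rest on annotation, since 15 of all members had no 3′ UTR over 2 bases in which a signal could be found. Members without a signal also mostly had the shorter transcripts, and the length trend given below was not removed from these medians. The 2 with a signal were the Hist3 pair. Genes of chromosome 11, where that pair lies, had a median log2 fold change of 0.37 in KO against WT over 1203 genes. That median was also 0.37 in DeltaSP against WT, and -0.01 in KO against DeltaSP.

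**Figure D2:**
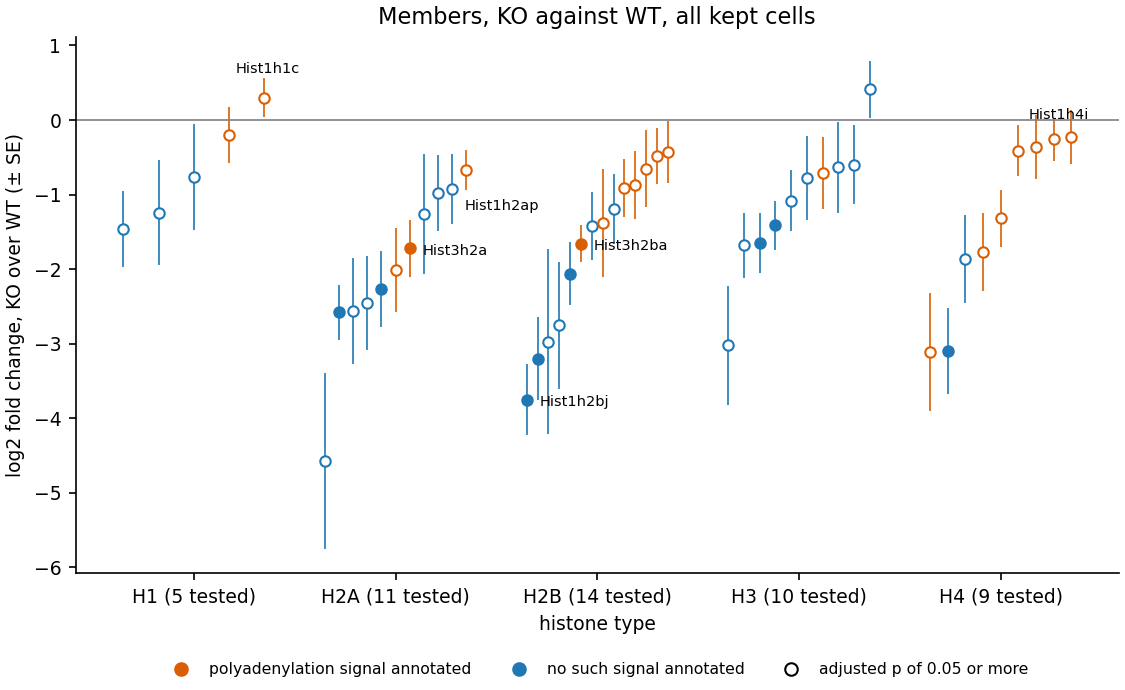
Log2 fold change of KO over WT in all kept cells (vertical axis, bars are SE) of the 49 members tested, by histone type; colour gives the annotated polyadenylation signal and open points have an adjusted p of 0.05 or more. All but 2 points lie below 0, and the 10 filled points are H2A, H2B, H3 and H4 genes.

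The KO calls depended on single libraries, and calls over all genes went down and up in the same fits as those of the members. The count of 10 became 0 without WT 1, 0 without KO 1, 0 without KO 2, 6 without DeltaSP 1, 6 without DeltaSP 2 and 23 without WT 2, while the member median stayed between -1.77 and -0.99. Short transcripts as a class differed between libraries: the 1477 genes of at most 1280 bases deviated from the mean of the libraries by a median of 0.329 and 0.043 (log2) in WT, -0.045 and 0.136 in DeltaSP, and -0.094 and -0.286 in KO. KO was lowest, WT 1 highest, and WT and DeltaSP overlapped. With each library's trend over transcript length removed, 3 members were called (Hist1h2bj, Hist1h4c and Hist3h2a). In that setting 1049 of all 14900 genes were called, and the member median was -0.74.

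Genes of DNA replication and mitosis were called higher in KO over all kept cells, where KO held fewer neuron-like cells. Of 43 S phase genes tested, 15 rose in KO and 0 fell (median 0.55), among them Cdc6, which loads the replicative helicase, by 1.27 (adjusted p = 0.0262) and Pcna, the polymerase clamp, by 1.18 (adjusted p = 0.0291). Of 54 genes of G2 and mitosis, 19 rose and 0 fell (median 0.61). Of 24 histone chaperones, 3 rose and 0 fell: Asf1b, an H3-H4 chaperone, by 1.22, and the subunits Chaf1a and Chaf1b of chromatin assembly factor 1 by 0.91 and 0.78. Within progenitor-like cells edgeR called 1 of 43 S phase genes higher, 0 of 54 genes of G2 and mitosis and 0 of 24 chaperones. Only 0.115% of all genes were called higher there, and the medians of the lists were 0.34, 0.29 and 0.13. Within neuron-like cells it called 3 of 42 S phase genes higher, and again 0 of 54 and 0 of 24. There 0.778% of all genes were called higher, and the medians were 0.29, 0.40 and 0.08. The part of cell make-up in the rises over all kept cells was not tested. In DeltaSP against WT over all kept cells, the medians were 0.46 for S phase genes and 0.38 for those of G2 and mitosis. Neither list had a call there by edgeR. KO against DeltaSP gave medians of 0.12 and 0.22, also without a call.

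Of 31 genes of histone transcription and 3′ processing, 2 fell and 0 rose, where 4.71% of all genes were called lower and 2.81% higher. The median of this list was 0.21. Snrpf and Snrpe, Sm proteins that the U7 and the spliceosomal particles share, fell by 1.96 and 1.66. A link of these 2 genes to the member levels was not tested. Of 11 tested histone variants listed as replication-independent, 1 fell (H2afj, by 1.20) and 0 rose. Their levels were not even over the called phases of progenitor-like cells. Of the 11, 9 were called higher in S-called than in G1-called cells, where 21.5% of all genes were. In G2M-called cells it was again 9, against 21.3% of all genes, among them Cenpa, which is also on the list of G2 and mitosis.

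Between DeltaSP and WT 0 of 49 members were called by edgeR, with 14 at an unadjusted p under 0.05 and 2 by DESeq2, where 0.356% of all genes were called (0.289% higher, 0.0671% lower). The member median was -0.55 and 38 of 49 were below 0. Both DeltaSP libraries lay below both WT libraries in 20 of the 49 members, against 23.1% of all genes, and above them in 1, against 24.9%. Without WT 2 the count was 4. KO against DeltaSP also gave 0 of 49 (7 at an unadjusted p under 0.05 and 1 by DESeq2), where 0.00671% of all genes, 1 gene, were called. Both KO libraries lay below both DeltaSP libraries in 32 of the 49 members, against 21.1% of all genes, and above them in 1, against 20.8%. The member median was -0.73. KO and DeltaSP were compared with the same WT libraries.

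Within classes of cells the sum over the members was lowest in KO. In progenitor-like cells the summed level was 775 and 964 CPM in WT, 629 and 916 in DeltaSP, and 443 and 493 in KO. In neuron-like cells it was 537 and 430 in WT, 414 and 480 in DeltaSP, and 303 and 259 in KO. Both KO libraries lay below all others in each class.

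In progenitor-like cells 3 of 45 members fell in KO and 0 rose, where 1.1% of 13094 genes were called (0.115% higher, 0.985% lower) and DESeq2 called 15 members lower. Hist1h2bj fell by 4.12 (adjusted p = 0.0342). Hist1h2ag fell by 3.06 and Hist1h2bm fell by 2.42. The member median was -1.41. The count was 25 without WT 2 and 0 without KO 1 or without KO 2. With the length trend removed it was also 0, where 6 of 13094 genes were called. Calls over all genes went the same way as those of the members in each of these fits.

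In neuron-like cells 1 of 24 members fell, Hist3h2ba, by 1.30 (adjusted p = 0.0350), where 3.21% of 12858 genes were called (0.778% higher, 2.43% lower) and DESeq2 called 4 members. It had a log2 fold change of -1.35 in progenitor-like cells, where its adjusted p was 0.0606. The neuron-like call was lost without any 1 of WT 1, DeltaSP 1, DeltaSP 2, KO 1 and KO 2, with the length trend removed, and without the clusters mostly of WT 1, while without WT 2 there were 9 calls.

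For DeltaSP, edgeR called 0 of 45 members in progenitor-like cells (15 at an unadjusted p under 0.05, 1 by DESeq2), where 0.0153% of genes were called (0.00764% higher, 0.00764% lower), and 0 of 24 in neuron-like cells (0 at an unadjusted p under 0.05, 0 by DESeq2), where 0.101% were (0.0778% higher, 0.0233% lower). Without WT 2 the counts were 9 and 1. The change between classes was not called as different in KO or in DeltaSP from that in WT for any of 46 members (interaction of genotype and class in edgeR; 0 and 3 members at an unadjusted p under 0.05; 0.0143% of genes called in each).

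Neuron-like cells were then compared with progenitor-like cells, with library as a block and with the members kept out of the genes that made the clusters. Of 46 members tested 36 fell in neuron-like cells, 4 rose and 6 did not pass. Both classes differ in most genes: 81.9% of 13998 genes were called, 40.1% higher and 41.8% lower. Among the members 78.3% were lower and 8.70% higher, with a median of -1.61 against -0.01 over all genes.

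Of the members without an annotated signal, 24 of 27 tested fell and 0 rose, with a median of -1.97. Hist2h3c2, an H3 gene without a signal, did not pass the filter on low counts and was higher in neuron-like cells in 6 libraries and lower in 0. Hist1h2ap had 253 and 653 CPM in WT progenitor-like cells and 70.8 and 128 in WT neuron-like cells, 304 and 529 against 70.3 and 160 in DeltaSP, and 174 and 300 against 39.9 and 73.9 in KO. Each neuron-like value was below each progenitor-like value, and it fell by 2.08 ± 0.07 (adjusted p = 2.14e-10). Of the linker genes, Hist1h1b fell by 2.18 and Hist1h1e, whose last 300 bases are shared with other genes, by 1.31. Of the H3 genes Hist1h3c fell by 2.73.

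The 19 tested members with a signal divided: 4 rose, 12 fell and 3 did not pass (median -0.97). The 4 that rose were the Hist3 pair, Hist2h3c1 and Hist2h4. Hist2h3c1 and Hist2h4 were not called with only G1-called cells of both classes, and Hist2h3c1 was not called with thinned cells either. Hist3h2ba had 70.4, 47.0, 49.99, 53.4, 32.1 and 24.4 CPM in progenitor-like cells of WT 1, WT 2, DeltaSP 1, DeltaSP 2, KO 1 and KO 2, and 218, 164, 171, 160, 106 and 79.9 in neuron-like cells. Every neuron-like value exceeded every progenitor-like one, and it rose by 1.65 ± 0.04 (adjusted p = 5.72e-11).

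Hist3h2a had 18.3, 8.04, 16.7, 12.8, 8.78 and 4.87 CPM in progenitor-like cells in the same order, and 74.2, 43.2, 55.7, 38.2, 30.4 and 27.1 in neuron-like cells. The classes again did not overlap, and it rose by 1.91 ± 0.11. Hist2h4, an H4 gene, rose by 0.89 ± 0.20 from 1.41 to 2.71 CPM in progenitor-like cells to 2.71 to 4.86 in neuron-like cells, and was higher in 6 of 6 libraries. Hist2h3c1, an H3 gene whose last 300 bases are shared with other genes, rose by 2.28 ± 0.34 on 27 UMIs against 106.

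Other members with a signal fell with the rest. Hist1h4i had 60.3, 41.2, 62.9, 58.6, 55.0 and 35.9 CPM in progenitor-like and 16.7, 10.4, 16.9, 14.6, 16.4 and 8.58 in neuron-like cells, with no overlap, and fell by 1.97. Hist1h2ae fell by 2.13, Hist1h2bc by 1.30 and Hist1h2bh, at 148 against 7 UMIs, by 3.97. Hist1h1c did not pass, with a log2 fold change of 0.13 and higher values in 5 of 6 libraries. The promoter letters printed above were not tested against these directions.

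The make-up of histone mRNA differed between the classes. Members with a signal made 413 of 537 CPM in WT 1 and 280 of 430 in WT 2 in neuron-like cells, and 368 of 775 and 224 of 964 in progenitor-like cells. The Hist3 pair alone stood at 107 to 292 CPM in neuron-like cells of the 6 libraries and at 29.3 to 88.8 CPM in progenitor-like cells. In committing precursor-like cells it stood at 31.4 to 57.0 CPM in 5 libraries and at 251 CPM in WT 1. Of the 334 committing cells of WT 1, 321 were of 1 cluster (led by Bhlhe22 and Igfbpl1), whereas most of those of the other libraries were of 2 others, so the values are of different clusters.

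**Figure D3:**
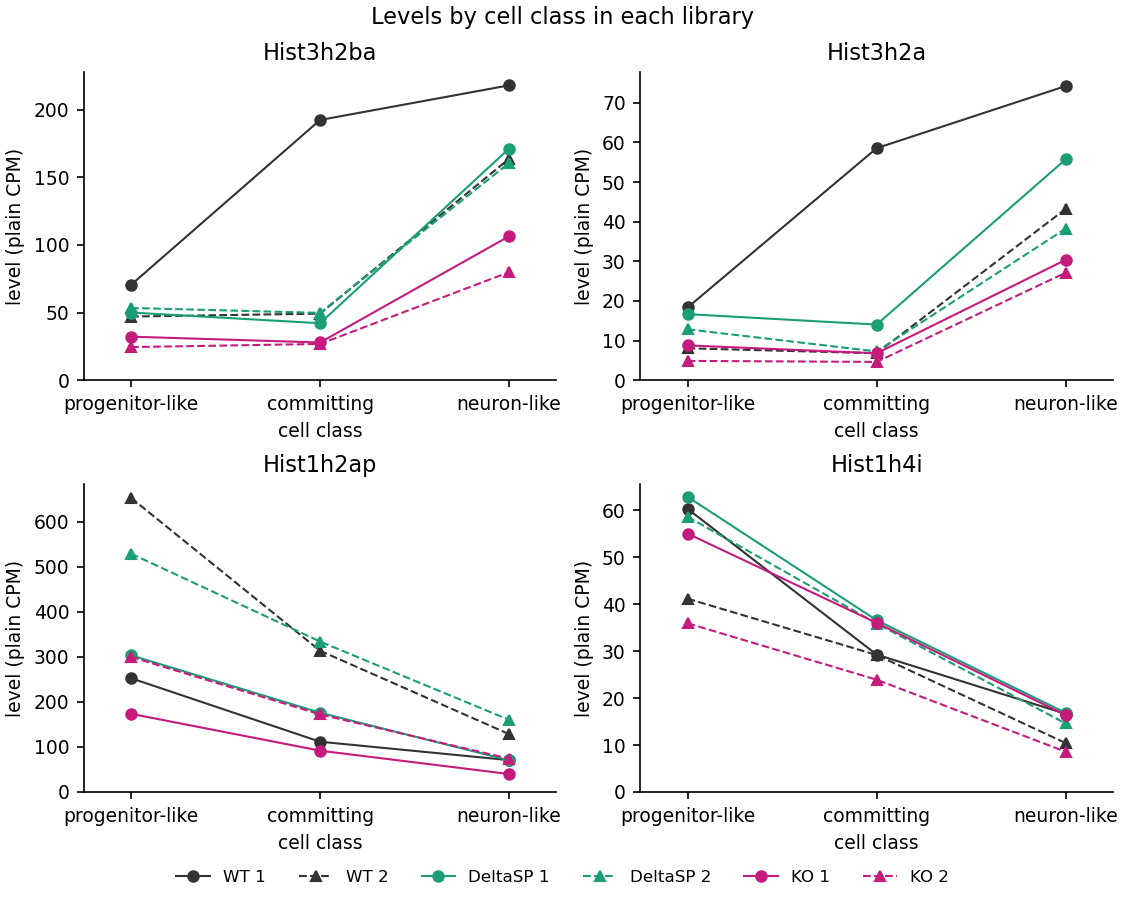
Level in plain CPM of 4 members in progenitor-like, committing and neuron-like cells; each line is 1 library (colour is genotype, marker and dash the library number). Hist3h2ba and Hist3h2a are highest in neuron-like cells of all 6 libraries, with committing cells of WT 1, mostly of another cluster than those of the other libraries, also high, while Hist1h2ap and Hist1h4i decline from progenitor-like to neuron-like cells in all 6.

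**Figure D4:**
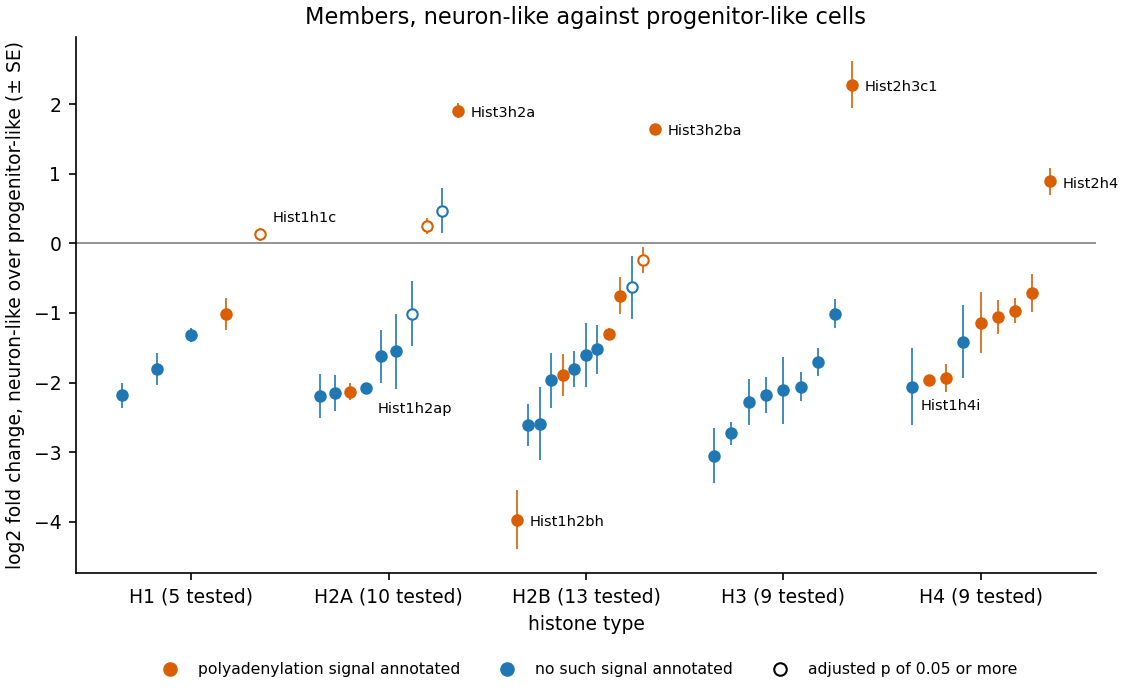
Log2 fold change of neuron-like over progenitor-like cells (vertical axis, bars are SE) of the 46 members tested, by histone type, with colour for the annotated polyadenylation signal and open points for an adjusted p of 0.05 or more. The 4 filled points above 0 are Hist3h2a, Hist3h2ba, Hist2h3c1 and Hist2h4, and all have a signal.

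In the same comparison 43 of 43 S phase genes fell, as did 53 of 54 genes of G2 and mitosis, 22 of 24 chaperones and 24 of 31 processing genes. Among the replication-independent variants 8 of 11 fell and 2 rose. Unlike the members, these genes were not kept out of the clustering that made the classes, so their counts are not an independent test. Some of the genes stand in several of the lists. The class of cells called by scanpy as G1 had fewer calls: with only G1-called cells of both classes, 14 of 26 members fell and 2 rose (the Hist3 pair). In that setting 4321 of 12529 genes were called higher and 4025 lower. The part of free RNA of the droplets in the level of Hist1h2ap in neuron-like cells was not tested.

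Progenitor-like cells were also compared by called phase, which is not a measured step of the cycle. Phases were called from S and G2/M gene lists that hold no member, and G1 is what scores on neither. The clusters behind them differed: 42.5% to 81.2% of G1-called cells in the 6 libraries were of the cluster led by Atf3, Junb and Egr1, against 14.7% to 33.2% of S-called cells, and in WT 1 the cluster nearly its own gave 50.6% and 64.7%. Of 20 members tested in S-called against G1-called cells, 8 rose, 4 fell and 8 did not pass, where 42.9% of 11116 genes were called (21.5% higher, 21.3% lower). The 5 that rose without a signal were Hist1h2ap, Hist1h1b, Hist1h1a, Hist1h3d and Hist1h2bj, and 0 of 10 without one fell. Of 10 with a signal 3 rose (Hist1h4i, Hist1h2ae and Hist1h4d) and 4 fell (Hist2h4, Hist1h2ac, Hist3h2a and Hist1h1c).

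Hist1h2ap had 97.2, 193, 175, 354, 69.9 and 129 CPM in G1-called cells of WT 1, WT 2, DeltaSP 1, DeltaSP 2, KO 1 and KO 2, and 339, 837, 357, 620, 227 and 375 in S-called cells. It was higher in S in 6 of 6 libraries and rose by 1.53 ± 0.12 (adjusted p = 1.78e-10). Hist1h4i had 29.0, 17.8, 51.3, 34.0, 26.6 and 11 CPM in G1-called and 74.1, 48.8, 64.9, 67.2, 59.5 and 40.7 in S-called cells, and rose by 1.15 ± 0.14, also in 6 of 6. Of the 4 that fell, Hist2h4 fell by 1.92 on 33 UMIs in G1-called cells, Hist1h2ac by 1.15, Hist3h2a by 0.72 and Hist1h1c by 0.62.

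In G2M-called against G1-called cells 9 of 26 members rose, 3 fell and 14 did not pass, where 40.9% of 11658 genes were called (21.3% higher, 19.7% lower). Hist1h2bm rose by 1.65, Hist1h4d by 1.59, Hist1h3d by 1.41, Hist1h2ae by 1.21, Hist1h2ap by 1.12 and Hist1h4i by 0.99. Hist1h2bc rose here (by 0.90) and Hist1h3c too (by 1.12). Hist2h4, Hist1h1c and Hist1h2ac fell again, by 1.65, 1.23 and 0.88.

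The difference between called phases itself differed between genotypes for 3 of the abundant members. Hist1h2ap rose less between G1-called and S-called cells in DeltaSP than in WT, by a log2 difference of -1.12 ± 0.14 (adjusted p = 0.000543), 1 of 20 members called where 0.594% of genes were; in KO the difference was -0.37 and was not called (0 of 20 called by edgeR, 6 at an unadjusted p under 0.05, 0.189% of genes). Hist1h1c had 22.6 and 15.1 CPM in G1-called cells of WT, 61.8 and 48.3 in DeltaSP, and 58.2 and 81.7 in KO, but 29.0 and 17.5, 29.2 and 28.5, and 40.5 and 23.3 in S-called cells. It was higher in S-called than G1-called cells in both WT libraries and lower in all 4 edited ones, and the difference did not pass (adjusted p = 0.0852 for KO and 0.0787 for DeltaSP). In G1-called cells the edited libraries stood above WT without overlap. Between G1-called and G2M-called cells 2 of 26 members differed in KO (0.292% of genes) and 2 in DeltaSP (1.12% of genes).

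G1-called progenitor-like cells were fewer in the edited lines and differed in their clusters. They numbered 553 and 141 in WT, 95 and 133 in DeltaSP, and 69 and 75 in KO, which is 24.9% and 18.9%, 10.2% and 7.55%, and 6.26% and 6.60% of progenitor-like cells. The cluster led by the stress-response genes Atf3, Junb and Egr1 gave 42.5% and 56.0% of them in WT, 70.5% and 81.2% in DeltaSP, and 68.1% and 61.3% in KO. The part of this cluster and of free RNA in the phase differences was not tested, and 77 to 311 cells per library lay near a phase boundary. With cells thinned to 3000 UMIs 5 members were called for S and 7 for G2M.

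The sums were lowest in KO among S-called and G2M-called cells too. The summed level in S-called progenitor-like cells was 919 and 1158 CPM in WT, 672 and 1022 in DeltaSP, and 519 and 578 in KO, and in G2M-called cells 837 and 955, 605 and 844, and 392 and 433. In G1-called cells, at 415 and 404, 539 and 744, and 279 and 401, KO 1 was the lowest and KO 2 lay next to WT 2. S-called cells were 28.4% and 38.9% of progenitor-like cells in WT, 42.1% and 43.4% in DeltaSP, and 45.9% and 43.7% in KO.

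**Figure D5:**
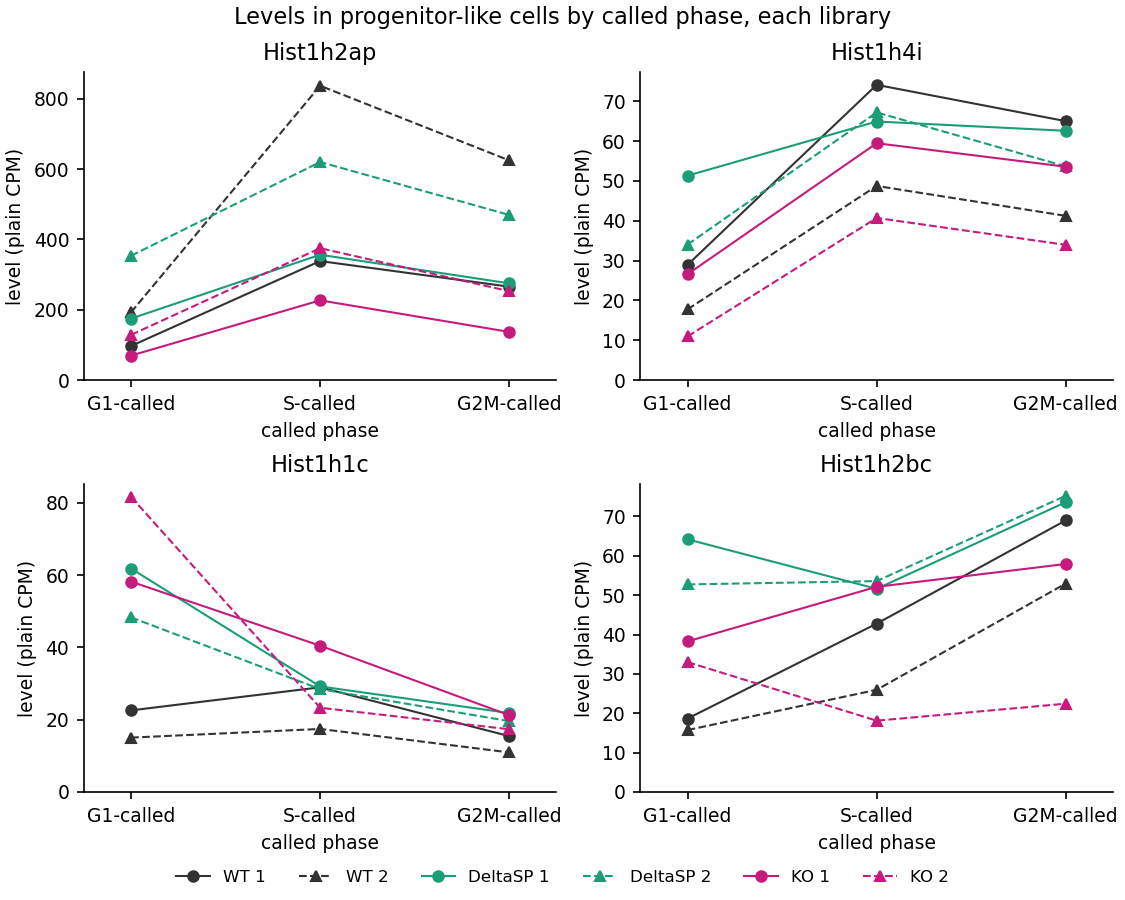
Level in plain CPM of 4 members in progenitor-like cells called G1, S and G2M; each line is 1 library (colour is genotype, marker and dash the library number). Hist1h2ap and Hist1h4i are higher in S-called than in G1-called cells of all 6 libraries, whereas Hist1h1c and Hist1h2bc start higher in G1-called cells of the edited lines than of WT.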

How the data were processed

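The members, the gene lists and the comparisons were chosen with earlier results of these data known. The authors deposited whole-number UMI counts for each gene in each barcode, not normalized. Per the labels they came from Cell Ranger 4.0, with mm10 as genome and annotation of Ensembl release 93; 10x 3′ chemistry is named as V3 in one place and as V3.1 in another. Kept cells had 1000 or more genes and 10% or less of mitochondrial UMIs, and no doublet caller was run. Leiden clusters (leidenalg 0.10.2, resolution 0.6) were built without the members, from 2000 variable genes reduced to 30 components with 15 neighbours. They were named from marker lists, by a rule set after the clusters were seen. The progenitor-like class joined neural progenitor-like and p3 or floor plate-like clusters, the neuron-like class motor neuron-like and interneuron-like ones. Phases were called with scanpy 1.11.5. UMIs were summed per library and cell set, and tested with edgeR 4.0.16 (R 4.3.3; TMM, filterByExpr, quasi-likelihood, Benjamini-Hochberg adjusted p under 0.05) in 1 fit of 6 libraries, or with library as a block between cell sets. DESeq2 1.42.0 was an alternative. The fits were tested on simulated data.

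Members named with values average at least 20 CPM, passed a test (beyond 8 in a comparison, those with the smallest p) or belong to the germ line. Hist1h3a and Hist1h3e in KO, Hist2h4, Hist2h3c1, Hist1h1b and Hist1h2bh between classes, and Hist1h3d, Hist1h2bj, Hist1h1a, Hist1h2bm and, in G2M, Hist2h4 and Hist1h2ac between phases were named beyond it, after their values were seen. Stem-loops and signals come from GENCODE vM21 transcripts (GRCm38, the build of mm10), promoters from RefSeq. Replicate numbers were not used to pair the samples in the main fits. Floors cover counting error only.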

Additional observations from a re-analysis of the deposited data

Results flagged for a closer look

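In progenitor-like cells the change with called phase differed between genotypes in 5 tests (edgeR interaction of genotype and phase, library as a block), all on 3 members. For Hist1h2ap the rise from G1-called to S-called cells was smaller in DeltaSP than in WT by a log2 difference of -1.12 (adjusted p = 0.000543), and that to G2M-called cells by -1.13 (adjusted p = 1.19e-05). With single libraries left out these stayed called, at -1.27 to -0.92 and -1.23 to -0.95.

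For Hist1h2bc the rise to G2M-called cells was smaller in DeltaSP by -1.53 (adjusted p = 0.00305) and in KO by -1.72 (adjusted p = 0.0122). It had 18.7 and 15.7 CPM in G1-called cells of WT, 64.2 and 52.7 in DeltaSP, and 38.3 and 33.0 in KO, and 69.0 and 53.0, 73.6 and 75.2, and 57.9 and 22.4 in G2M-called cells. The G1-called values of the edited libraries lay above those of WT without overlap. The KO difference was -1.19 without KO 2 (adjusted p = 0.261).

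Hist1h1c fell further to G2M-called cells in KO than in WT, by -1.37 (adjusted p = 0.0404). It had 15.5 and 10.96 CPM in G2M-called cells of WT and 21.3 and 17.4 in KO, against 22.6 and 15.1, and 58.2 and 81.7, in G1-called cells. The difference was not called without WT 1, DeltaSP 2 or KO 2 (-1.41, -1.36 and -0.90). G1-called cells of the edited lines numbered 69 to 133 per library, and the cause of these differences was not tested.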

How the results depend on the processing

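The summed level in KO stayed below WT in the settings run for the sums, at -376 to -54.2 CPM, and at -296 to -265 with a library left out. The value of -54.2 is of the 60 members under 20 CPM alone. The other settings were TMM scaling and the looser cell filter, and the length trend was not removed from the sums. DeltaSP minus WT ran from -170 to 58.0 with a library left out, the latter without DeltaSP 1. Members called in KO against WT, all kept cells (10), ranged from 0 to 23 with a library left out, and were 18 with DESeq2, 25 of 65 without the filter and 3 with the length trend removed; in progenitor-like cells (3) from 0 to 25, and 15 with DESeq2, 12 with library sizes only, 28 without the filter, 0 with the length trend removed and 5 thinned; in neuron-like cells (1) from 0 to 9, and 4 with DESeq2, 10 without the filter, 0 with the length trend removed, 0 with only the genotypes compared, 2 thinned and 0 without the clusters mostly of WT 1. Adding the replicate block gave 8, 2 and 3 in the same cell sets, and all-gene calls of 1014, 78 and 368 in place of 1121, 144 and 413. Calls over all genes also moved widely with the library left out, in each of these cell sets. Over 14900 genes same-numbered libraries did not deviate together (correlations of deviations from genotype means -0.017, 0.137 and 0.027). Hist1h2ap by itself was higher in library 2 of each genotype.

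DeltaSP against WT (0 in each cell set) ranged from 0 to 4, 0 to 9 and 0 to 1 with a library left out; it gave 2 and 1 with DESeq2 in all kept and progenitor-like cells, and 10, 12 and 2 without the filter. KO against DeltaSP (0) gave 1 with DESeq2 and 7 without the filter. Neuron-like against progenitor-like cells (40) gave 15 of 17 with thinned cells, 16 of 26 with G1-called cells and 27 with no replicate block. S against G1 (12) gave 3 with no replicate block, 5 thinned and 35 with all kept cells; G2M against G1 (12) gave 3, 7 and 40.

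Library sizes without TMM moved the all-gene median of KO against WT to 0.25 in all kept cells, 0.29 in progenitor-like and 0.27 in neuron-like cells (members -1.06, -1.14 and -0.69), and all-gene calls from 419 higher and 702 lower to 1539 and 549, from 15 and 129 to 428 and 293, and from 100 and 313 to 727 and 319; G2M against G1 went from 2482 and 2291 to 1983 and 2924.

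Of 762 values of named genes, 638 kept direction and side of the threshold, 84 lost their call, 30 gained one and 10 changed sign: in KO against WT Hist1h4i (0.00 with library sizes only, 0.18 without WT 1, 0.03 without KO 2, -0.61 to 0.18 with a library left out, 0.45 without the length trend), Hist1h1c (-0.00 without KO 1, up to 0.67), Hist1h2bc (-1.29 to 0.12, the latter without KO 2) and Hist1h2ap (0.25 without the length trend); Hist1h1c between classes (-0.59 in G1-called cells); and S against G1, Hist3h2ba (0.01 thinned) and Hist1h1c (0.03 in all kept cells). The settings without the cells of most UMIs, without clusters mostly of WT 1 and with G1-called cells of both classes, and the interaction tests, were chosen after seeing the data. The causes were not tested. Depth limits the 36 members under 1 CPM.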
